A study of Mus musculus with 17 samples.

Results

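The response of wild-type mouse livers to acetaminophen (APAP) was measured as the difference in gene expression between 3 livers taken 24 h after 200 mg/kg APAP and 3 livers taken after saline. The libraries were chosen by their labels alone, 6 of 17 in the series. All 6 mice were male C57BL/6, a common inbred strain, and carried the label Nampt +/+, written wild type here. Nampt encodes the enzyme that turns nicotinamide into the precursor of NAD, and the series also holds livers labelled Nampt +/- (Het) and Nampt OE, an abbreviation that the labels do not spell out. Saline livers 1 and 2 were perfused, came from mice 12 weeks old and were sequenced in lane 7. Saline liver 3 was not perfused, came from a mouse 11 weeks old and was sequenced in lane 6. APAP livers 1, 2 and 3 were not perfused, came from mice 11 weeks old and were sequenced in lane 5. A further wild-type saline liver, labelled IG (not perfused, 11 weeks, lane 6), was left out of the test and serves as a check. Replicate numbers follow the order of deposition and pair no samples. The labels name separate samples but no separate cultures or litters, so the p-values cover only how far these libraries spread, part of which may be technical.

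APAP is a painkiller that hepatocytes clear mainly by joining it to glucuronic acid or sulfate. Cytochrome P450 enzymes, above all Cyp2e1, turn part of a high dose into a reactive quinone imine that uses up glutathione, binds proteins in mitochondria and kills the hepatocytes around the central vein, where these enzymes are concentrated. Surviving cells switch on stress and acute phase genes, and monocytes and neutrophils enter the injured zone during the following day.

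Values are FPKM, fragment counts divided by transcript length and by library size, which compare levels between genes per length. Differences are APAP minus saline on the log2(FPKM + 1) scale with their standard error, with 3 libraries a group throughout, and this scale understates the change of low genes. A gene is said to have risen or fallen where limma's p, adjusted over the 11062 genes tested, was under 0.05. The absolute sequencing depth is unknown, but the spacing of the lowest values put the saline libraries at 1.46 to 1.75 times and APAP livers 2 and 3 at 1.31 and 1.08 times the depth of APAP liver 1. Saline libraries differed from one another by a median of 0.15 to 0.19 on the log2 scale over the genes tested, APAP libraries from one another by 0.20 to 0.26, and saline from APAP libraries by 0.27 to 0.36. Summed hepatocyte markers, which define the labelled tissue, stood at 23733 to 25310 FPKM in saline livers and at 21702, 21186 and 13179 FPKM in APAP livers 1 to 3. Albumin was listed at 0 in all libraries, and 162 genes listed at 0 throughout one group while abundant elsewhere, among them Trf, mt-Co1 and most of the Mup genes, were taken as failed estimates and not tested.

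After APAP 582 genes were higher (5.26% of those tested) and 1105 were lower (9.99%), together 15.3% of the genes tested. Of these, 163 rose and 326 fell by at least 1 on the log2 scale, and the median over all 11062 genes was -0.02. The libraries of the groups did not overlap in 4221 genes (38.2%), higher in 1808 (16.3%) and lower in 2413 (21.8%). The 1687 genes that passed were all among these, so each already held the APAP livers apart from saline 3. In 1621 of them the APAP livers were also apart, in the same direction, from the IG liver, which is 1 library. The share over all genes was not counted. Quantile normalisation gave 556 higher and 646 lower genes, so the surplus of lower genes depends on the scaling.

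Treatment and lane cannot be told apart in these livers, and perfusion, age and lane split the saline livers in the same way. With only non-perfused livers, 3 APAP against saline 3 and IG, 329 genes passed, 300 of them among the 1687. All 1687 kept their direction, but saline 3 was also in the main test and had fixed this in part. A term for perfusion, which in these 6 libraries leaves saline liver 3 as the only saline liver without perfusion, left 9 genes past the threshold. Without saline liver 1, 2 or 3 the count was 277, 518 or 716, and without APAP liver 2 it was 1100. Of 144 named genes that passed, 4 passed again in each alternative that tested them: Glul, Prodh and Rhbg, which fell, and Gsta1, which rose. Another 34 lost the call only with the perfusion term in 6 libraries, among them Mt1, Mt2, Nupr1, Atf3, Psat1, Cdkn1a, Apcs and Vcam1 on the higher side and Slco1b2, Slc10a1, Sirt3 and Oat on the lower side. Of 280 list members that passed, 37 failed in more alternatives than they passed, among them Ccl2, Thbs1, Fgfr4, Gadd45a, Pdgfrb and Pdk4 on the higher side and Fabp1, Folr2, Abcc3, C8b, Kynu, Lum, Naprt, Onecut1, Sirt4 and Tyms on the lower side. The plot of single livers shows the main genes of each group.

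**Figure D1:**
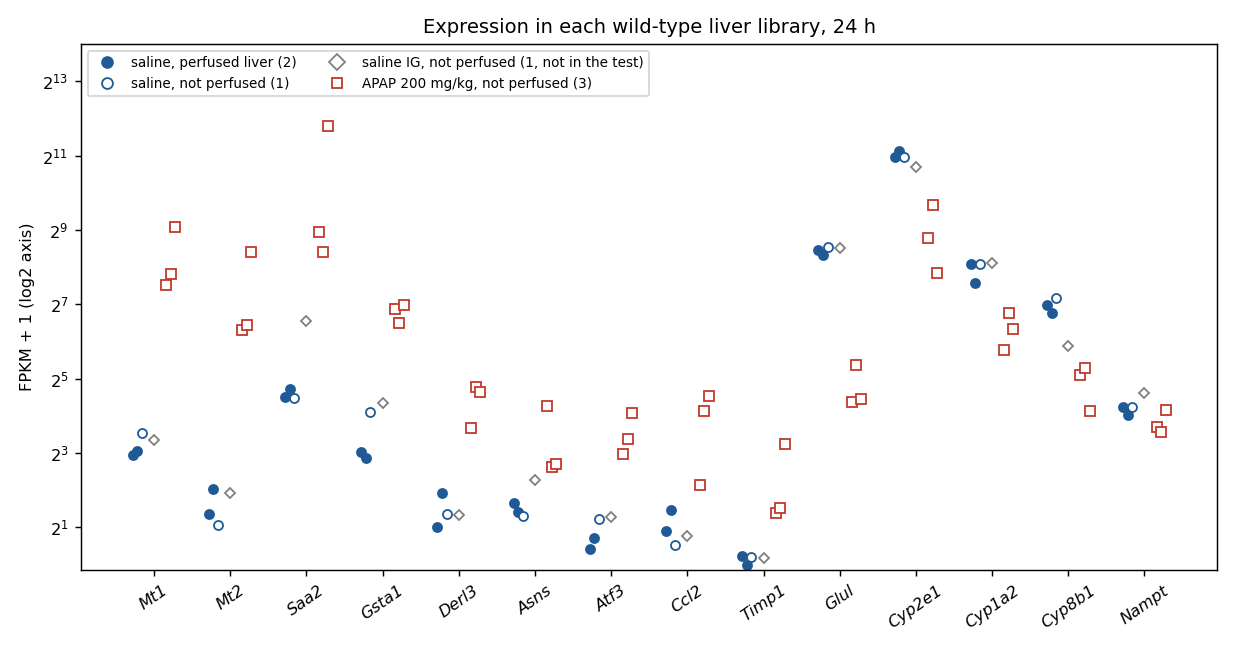
FPKM + 1 (log2 axis) of 14 genes in each wild-type library, with saline livers as circles (filled where perfused), the IG saline liver as a diamond and APAP livers as squares. Glul fell from 321 to 374 FPKM in saline livers to 19.7 to 40.1 FPKM in APAP livers, Mt1 rose from 6.75 to 10.7 FPKM to 183 to 538 FPKM, and the Nampt values of both groups lie close together.

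Genes of hepatocytes around the central vein fell. Glul (GRCm38 chromosome 1, 153899944 to 153909723, plus strand), glutamine synthetase of the innermost ring of hepatocytes, stood at 354, 321 and 374 FPKM in saline livers and at 19.7, 40.1 and 20.8 FPKM in APAP livers 1 to 3. The lowest saline liver was far above the highest APAP liver, and the IG liver, at 367 FPKM, lay with the saline livers. Its difference was -3.72 ± 0.26 (adjusted p = 0.00228). Neighbours of glutamine synthesis moved with it. Prodh, proline dehydrogenase, fell by 2.48 ± 0.16, Oat, ornithine aminotransferase, by 1.91 ± 0.23, Rhbg, an ammonia transporter, by 1.67 ± 0.22, and Slc1a2, a glutamate transporter, by 2.84 ± 0.58. Of 18 tested pericentral genes (22 listed), 12 fell, 1 rose and the median was -1.46. The one that rose, Slc1a4 (1.10 ± 0.16), carries neutral amino acids. With non-perfused livers alone 6 fell and 1 rose, and the median was again -1.46. In whole liver, fewer cells of a type and less RNA per cell cannot be told apart.

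Of 19 tested periportal genes 6 fell and 1 rose, and the median was -0.54; the difference between the zones was not tested. Asl fell by 1.19 ± 0.20 and Otc by 1.02 ± 0.22, both enzymes of the urea cycle, and Cyp2f2, a periportal P450, fell by 1.24 ± 0.22. Cps1, the entry enzyme of the urea cycle, did not pass (-0.65 ± 0.26, adjusted p = 0.123). Sox9 rose by 1.05 ± 0.23, from 0.19 to 0.59 FPKM in saline livers to 1.0 to 2.2 FPKM after APAP. In the non-perfused livers alone 1 of these genes fell.

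The enzymes that make the reactive product of APAP were lower. Cyp2e1 stood at 2009, 2238 and 1999 FPKM in saline livers and at 438, 813 and 228 FPKM after APAP (-2.26 ± 0.41, adjusted p = 0.0148). Each APAP liver was below each saline liver, and APAP liver 3 was the lowest. Cyp1a2, another P450 that oxidises APAP, was at 271, 191 and 270 FPKM under saline and at 53.5, 107 and 79.8 FPKM after APAP (-1.63 ± 0.26, adjusted p = 0.00976). Of 17 tested xenobiotic P450 genes (19 listed) 9 fell and 0 rose (52.9% against 9.99% of all genes), with a median of -1.24. Cyp2c37 fell by 2.71 ± 0.40 and Cyp2d9 by 1.85 ± 0.21. Cyp3a11 had a difference of the same order but did not pass (-2.13 ± 0.67, adjusted p = 0.0822), its APAP livers standing at 674, 458 and 106 FPKM. The Cyp2c, Cyp2d and Ugt families hold close copies that can share reads, so single members are uncertain.

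Genes of glucuronidation and sulfation, the routes that clear APAP itself, fell. Of 20 tested, 14 were lower (70% against 9.99% of all genes) and 0 higher, with a median of -1.11. Which members of this list act on APAP was not examined. Ugt1a6a and Ugt1a6b were among those that fell. Ugt1a1, which joins glucuronic acid to bilirubin and to drugs, went from 140 to 165 FPKM to 25.4 to 57.9 FPKM (-1.94 ± 0.27), and Ugt2b1 fell by 2.04 ± 0.25. Among the sulfotransferases, Sult2a8 fell by 2.77 ± 0.42, Sult5a1 by 1.82 ± 0.22 and Sult1d1 by 1.26 ± 0.14. In non-perfused livers alone 6 of the 20 fell.

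Glutathione genes split. Gsta1, an alpha class glutathione transferase, stood at 7.09, 6.31 and 16.4 FPKM in saline livers and at 116, 89.5 and 126 FPKM after APAP (3.45 ± 0.33, adjusted p = 0.00386). The higher values of saline liver 3 and of the IG liver (19.5 FPKM), both not perfused, remained far below the lowest APAP liver. Of 20 tested genes of glutathione synthesis and transfer (22 listed), Gsta1 was the only one that rose (5% against 5.26% of all genes). Another 7 fell (35% against 9.99%), and the median was -0.38. Those that fell were the theta class transferases Gstt1, Gstt2 and Gstt3 (-1.13, -0.99 and -1.51), Gsta3 (-1.47 ± 0.34), Gstm2, the microsomal Mgst1 and the peroxidase Gpx1. Gclc, the catalytic subunit of glutathione synthesis, did not pass (0.33 ± 0.19, adjusted p = 0.267). Under quantile normalisation 3 of the 20 rose and 4 fell.

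A minority of the targets of Nrf2, the factor that answers electrophiles, rose. Of 20 tested targets outside glutathione metabolism, 5 rose (25% against 5.26% of all genes) and 2 fell (10% against 9.99%), with a median of 0.16. Srxn1, which repairs oxidised peroxiredoxins, went from 12.3, 11.9 and 14.9 FPKM to 33.7, 51.2 and 43.8 FPKM (1.63 ± 0.17, adjusted p = 0.00381). Abcc4, an export pump of the sinusoidal membrane, went from 0.49 to 0.53 FPKM to 3.26 to 4.37 FPKM (1.64 ± 0.15). G6pdx, Osgin1 and Fth1, the ferritin heavy chain, rose by 1.19, 0.97 and 0.89. Ces1g and Abcc3 fell. The classic targets Nqo1 (0.22 ± 0.34, adjusted p = 0.705) and Hmox1 (1.15 ± 0.48, adjusted p = 0.160) did not pass, and Hmox1 stood at 12.5, 13.9 and 46.2 FPKM in APAP livers 1 to 3 against 7.28 to 10.4 FPKM under saline.

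Metallothioneins, small proteins that bind zinc and copper, gave 2 of the 3 largest rises among the named genes. Mt1 (chromosome 8, 94179082 to 94180327, plus strand) stood at 6.75, 7.27 and 10.7 FPKM in saline livers and at 183, 226 and 538 FPKM after APAP (4.96 ± 0.41, adjusted p = 0.00343). Mt2 (chromosome 8, 94172664 to 94173568, plus strand) stood at 1.58, 3.07 and 1.09 FPKM under saline and at 78.1, 86.3 and 338 FPKM after APAP (5.57 ± 0.61, adjusted p = 0.00682). The groups were far apart for both genes, and APAP liver 3 was the highest. Slc39a14, a zinc and iron importer, also rose (0.80 ± 0.16), and the other 6 of the 9 genes of metallothioneins and zinc transport did not pass. The promoters are shown because both genes sit side by side, moved together and are known targets of the metal factor Mtf1. Capitals mark the core of the metal response element, TGCNCNC, on either strand, in RefSeq windows of GRCm38.p6 from 250 bases before to 50 after the start of each gene. The Mt2 stretch runs from 230 to 31 bases before the start (chr8:94172388-94172587, plus strand) and holds 5 matches. The Mt1 stretch runs from 60 bases before the start to the start (chr8:94179029-94179088, plus strand) and holds 1. The stretches differ in length, so these counts cannot be compared. After the start, the Mt1 window also holds TGCACTC (base 3) and TGCGCTC (base 21), and the Mt2 window GTGCGCA (base 5). This core is short: 51.0% of 32851 promoter windows hold it.
Mt2: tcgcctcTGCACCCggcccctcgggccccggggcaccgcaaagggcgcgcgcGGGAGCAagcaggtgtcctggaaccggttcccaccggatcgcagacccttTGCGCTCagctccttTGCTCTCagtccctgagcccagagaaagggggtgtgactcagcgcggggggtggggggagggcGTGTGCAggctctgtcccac
Mt1: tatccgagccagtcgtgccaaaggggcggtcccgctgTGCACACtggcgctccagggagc

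The antioxidant response element core TGACNNNGC lies in 12.4% of promoter windows, on either strand. It was found in the windows of Mt2 (79 bases before the start, overlapping no TGCNCNC match), Srxn1 and Abcc4 and not in that of Gsta1.

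Chaperones and folding enzymes of the endoplasmic reticulum (ER) rose. Of 22 tested genes, 16 rose and 0 fell (72.7% against 5.26% of all genes), with a median of 0.91. Derl3, which helps to pull misfolded proteins out of the ER, stood at 1.02, 2.79 and 1.58 FPKM under saline and at 11.8, 26.5 and 24.0 FPKM after APAP (2.93 ± 0.34, adjusted p = 0.00576). Creld2, an ER folding factor, went from 25.6, 31.7 and 22.4 FPKM to 96.8, 164 and 181 FPKM (2.39 ± 0.25, adjusted p = 0.00381). Hspa5, the abundant chaperone BiP, went from 493, 592 and 455 FPKM to 847, 1213 and 1186 FPKM (1.07 ± 0.20). In all 3 genes the groups were apart, and APAP liver 1 was the lowest of the APAP livers. Dnajc12 rose by 2.25 ± 0.24, Syvn1, a ligase of ER degradation, by 1.78 ± 0.23, Sdf2l1 by 1.54 ± 0.26 and Hyou1 by 1.18 ± 0.15. The 6 that did not pass include Xbp1 and Herpud1, whose differences were below 0, and Dnajb9 (0.78 ± 0.30, adjusted p = 0.121). With non-perfused livers alone 4 of the 22 rose (median 0.79), and the IG liver stood 0.32 above the saline mean at the median of the list, against 0.73, 1.02 and 0.96 in APAP livers 1 to 3.

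The promoters of Derl3, Creld2 and Hspa5 are shown because they hold the ER stress response element, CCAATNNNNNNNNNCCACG, which Atf6 and Xbp1 are known to bind. This motif and these genes were chosen after their values were seen. Capitals mark it on either strand, in stretches of 80 bases at chr10:75893212-75893291 (Derl3, plus strand), chr15:88819490-88819569 (Creld2, plus strand) and chr2:34771995-34772074 (Hspa5, plus strand).
Derl3: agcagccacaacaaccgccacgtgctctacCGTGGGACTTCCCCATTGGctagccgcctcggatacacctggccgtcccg
Creld2: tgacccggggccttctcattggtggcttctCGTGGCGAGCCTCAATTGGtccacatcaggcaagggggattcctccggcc
Hspa5: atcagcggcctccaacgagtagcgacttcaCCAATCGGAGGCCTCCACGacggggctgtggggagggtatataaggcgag
Over the list, 9 of the 19 genes with a promoter window held this motif (Hspa5, Hsp90b1, Dnajc3, Pdia6, Calr, Canx, Creld2, Derl3 and Syvn1), which is in 39 of all 32851 windows (0.119%). Calr and Canx, which hold it, did not pass, and Sdf2l1, which rose, has no match in its window.

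The integrated stress response, the programme that Atf4 runs when translation is slowed, rose in part. Of 21 tested genes (26 listed) 9 rose (42.9% against 5.26% of all genes) and 1 fell (4.76% against 9.99%), with a median of 0.74. Nupr1, Atf3 and Psat1 averaged under 1 FPKM in saline livers and were tested only through the APAP livers, which favours rises. Nupr1 went from 0.34, 0.42 and 0.70 FPKM to 13.8, 6.13 and 8.60 FPKM (2.76 ± 0.26, adjusted p = 0.00311). Atf3 went from 0.34, 0.66 and 1.34 FPKM to 6.85, 9.42 and 15.7 FPKM (2.68 ± 0.31, adjusted p = 0.00486). Ddit3, the death-linked factor CHOP, went from 4.03, 6.28 and 4.75 FPKM to 18.3, 20.3 and 31.2 FPKM (1.99 ± 0.22). For each of the 3 factors every APAP liver was above every saline liver, IG included. Psat1 (2.32 ± 0.18), Mthfd2 (1.07 ± 0.14), Aldh18a1 (1.07 ± 0.20) and Asns, which make serine, one-carbon units, proline and asparagine, rose with Trib3 (1.01 ± 0.14) and Slc3a2 (0.74 ± 0.16). Asns stood at 18.2 FPKM in APAP liver 1 but at 5.12 and 5.57 FPKM in livers 2 and 3, against 1.47 to 2.15 FPKM under saline (1.74 ± 0.43, adjusted p = 0.0425), and it passed in 11 of 20 alternatives. The gene that fell, Shmt2 (-0.71 ± 0.14), makes one-carbon units in mitochondria. Atf4 mRNA itself did not pass.

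The amino acid response element core, TGATGNAAN, is bound by Atf4 partner pairs and is in 3.95% of promoter windows. It is marked in capitals, on either strand, at chr6:7693210-7693289 (Asns, minus strand), chr1:191183400-191183479 (Atf3, minus strand), chr7:126625537-126625616 (Nupr1, minus strand) and chr2:152344028-152344057 (Trib3, minus strand, 4 to 33 bases after the start). Nupr1 was added after its values were seen.
Asns: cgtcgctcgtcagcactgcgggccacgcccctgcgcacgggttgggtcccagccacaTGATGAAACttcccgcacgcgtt
Atf3: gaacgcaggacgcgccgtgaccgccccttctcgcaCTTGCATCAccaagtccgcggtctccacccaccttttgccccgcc
Nupr1: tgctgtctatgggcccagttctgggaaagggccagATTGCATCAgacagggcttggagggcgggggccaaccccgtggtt
Trib3: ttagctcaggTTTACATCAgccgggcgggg
In the list 6 of 20 genes with a window held it, the others being Chac1 and Fgf21, which did not pass. Psat1 and Ddit3, which rose, have no match in these windows.

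**Figure D2:**
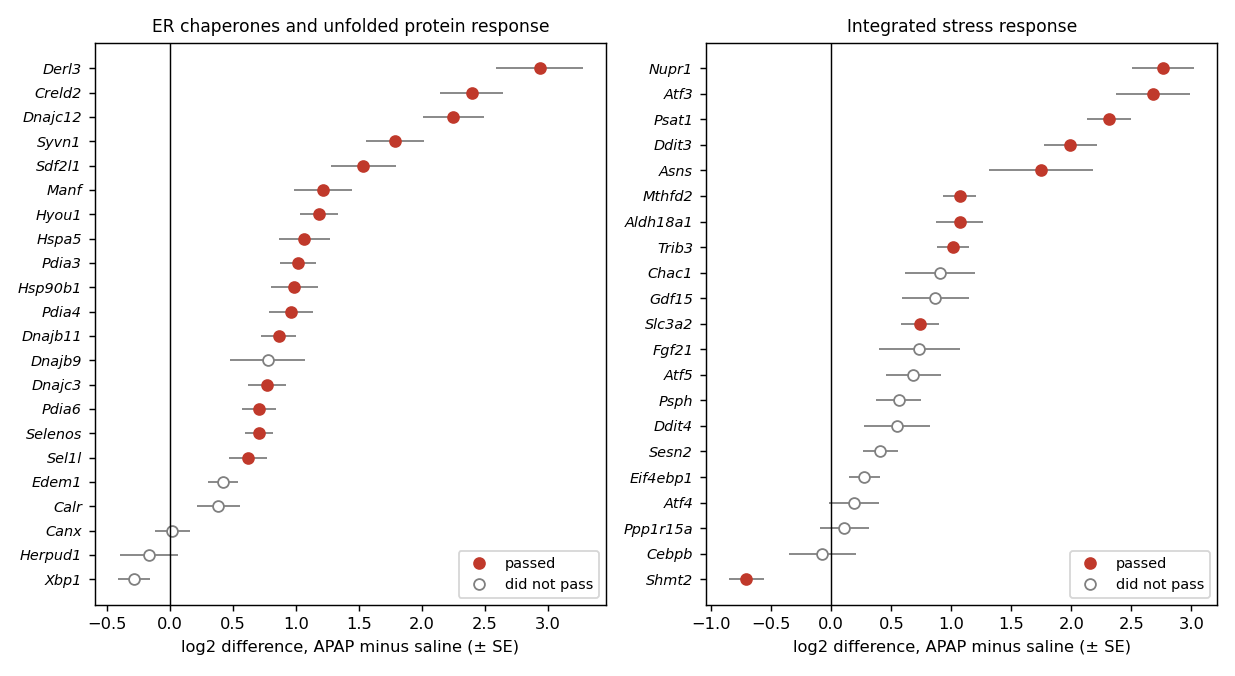
Difference APAP minus saline on the log2(FPKM + 1) scale (points) with its standard error (bars) for the 22 tested ER genes and the 21 tested genes of the integrated stress response, filled where the gene passed. In the ER list 16 genes passed and all lie to the right of 0, from Sel1l at 0.62 to Derl3 at 2.93; in the other list Shmt2 at -0.71 is the only one that passed to the left.

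Cytosolic heat shock proteins gave no common direction. Of 16 tested, Hspb1 rose (1.48 ± 0.29) and Dnaja1 fell (-0.69 ± 0.16), each 6.25% of the list, beside 5.26% higher and 9.99% lower over all genes. The median was -0.08, turning to 0.17 under quantile normalisation. The proteasome had 0 of 31 subunits past the threshold by limma, 5 at an unadjusted p under 0.05, and a median of -0.18 that turned to 0.13 under quantile normalisation.

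A minority of damage and early response genes rose. Cdkn1a, the p53 target p21 that halts the cell cycle, stood at 0.13, 0 and 0.35 FPKM under saline and at 2.97, 5.37 and 7.86 FPKM after APAP (2.40 ± 0.29, adjusted p = 0.00486). Of 15 tested p53 targets (21 listed) 4 rose (26.7% against 5.26% of all genes) and 1 fell (6.67% against 9.99%). The others that rose were Gadd45b (1.55 ± 0.14), Btg2 and Gadd45a. Cdkn1a and Gadd45b averaged under 1 FPKM in saline livers and were tested only through the APAP livers, which favours rises. Mdm2, the feedback target of p53, did not pass (0.72 ± 0.24, adjusted p = 0.0824). Of 21 tested immediate early and Stat3 feedback genes 7 rose (33.3% against 5.26% of all genes) and 0 fell (median 0.66). Among them were Egr1 (1.56 ± 0.15), Osmr (0.85 ± 0.20), the oncostatin M receptor, and Stat3 itself (0.57 ± 0.14). Egr1 and Osmr also averaged under 1 FPKM in saline livers. Egr1 stood at 1.54 FPKM in the IG liver, between the groups (0.20 to 0.40 and 2.63 to 3.27 FPKM). Socs3 did not pass, at 3.11, 19.8 and 10.8 FPKM in APAP livers against 1.80 to 2.37 FPKM under saline. In the non-perfused livers alone 3 p53 targets rose and 0 fell, and among the immediate early and Stat3 feedback genes 0 rose and 1 fell.

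Genes of cell division gave no common direction at 24 h: 11.1% of those tested rose and 11.1% fell, beside 5.26% and 9.99% of all genes. Of 18 tested (29 listed) Ccnd1, the G1 cyclin (0.80 ± 0.20, from 4.48 to 7.75 FPKM to 10.7 to 13.9 FPKM), and Mcm2 (0.77 ± 0.19), part of the replication helicase, rose, and Tk1 (-1.31 ± 0.24) and Tyms (-0.47 ± 0.12), which supply thymidine nucleotides, fell. The IG liver, at 12.1 FPKM of Ccnd1, lay among the APAP livers.

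Acute phase proteins, which hepatocytes secrete in answer to interleukin 6 and interleukin 1, rose. Of 25 tested (28 listed) 12 rose and 1 fell, with a median of 1.21. Saa2, a serum amyloid A protein, stood at 21.8, 25.2 and 21.3 FPKM under saline and at 492, 339 and 3519 FPKM after APAP (5.15 ± 0.92, adjusted p = 0.0262). The IG liver, at 92.5 FPKM, was above the saline livers and below the APAP livers, and APAP liver 3 was far above the other two. Apcs, serum amyloid P, went from 87.6, 98.2 and 65.1 FPKM to 417, 296 and 549 FPKM (2.29 ± 0.25). The fibrinogen chains rose together by 1.42 (Fga and Fgb) and 1.32 (Fgg), and Hp, haptoglobin, rose by 1.23 ± 0.27. The APAP livers spread widely in 3 genes that did not pass: Lcn2 (34.8, 88.4 and 799.8 FPKM against 4.0 to 8.0 FPKM; 4.42 ± 1.27, adjusted p = 0.0913), Saa1 (3.74 ± 0.91, adjusted p = 0.0516) and Orm2 (3.43 ± 1.12, adjusted p = 0.115). Saa1, Saa2 and the Orm genes have close copies and can share reads. In the non-perfused livers alone 5 rose.

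Other secreted liver proteins mostly did not pass. Of 34 tested complement and coagulation genes (37 listed) 8 fell, 26 did not pass and 0 rose, with a median of -0.33. C8g stood at 279, 280 and 279 FPKM under saline and at 147, 149 and 121 FPKM after APAP (-1.01 ± 0.14), and Proc, protein C, fell by 0.86 ± 0.15, with F7, F13b, C1ra, C1s1, C8b and Masp2. Under quantile normalisation 3 fell, 1 rose and the median was -0.04.

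Iron genes moved both ways, with 6 of 19 tested higher and 4 lower. Hpx, which carries haem, rose by 1.13 ± 0.23, Id1, a target of BMP signalling, by 2.10 ± 0.24 and Smad7 by 0.99 ± 0.27. Tmprss6, which restrains hepcidin, fell by 0.86 ± 0.14, and Hamp2 fell by 1.1 ± 0.20. Hepcidin itself, Hamp, did not pass and gave no direction (0.01 ± 0.37): the APAP livers stood at 299, 521 and 905 FPKM around the saline livers (453 to 560 FPKM), and the IG liver was at 132 FPKM.

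**Figure D3:**
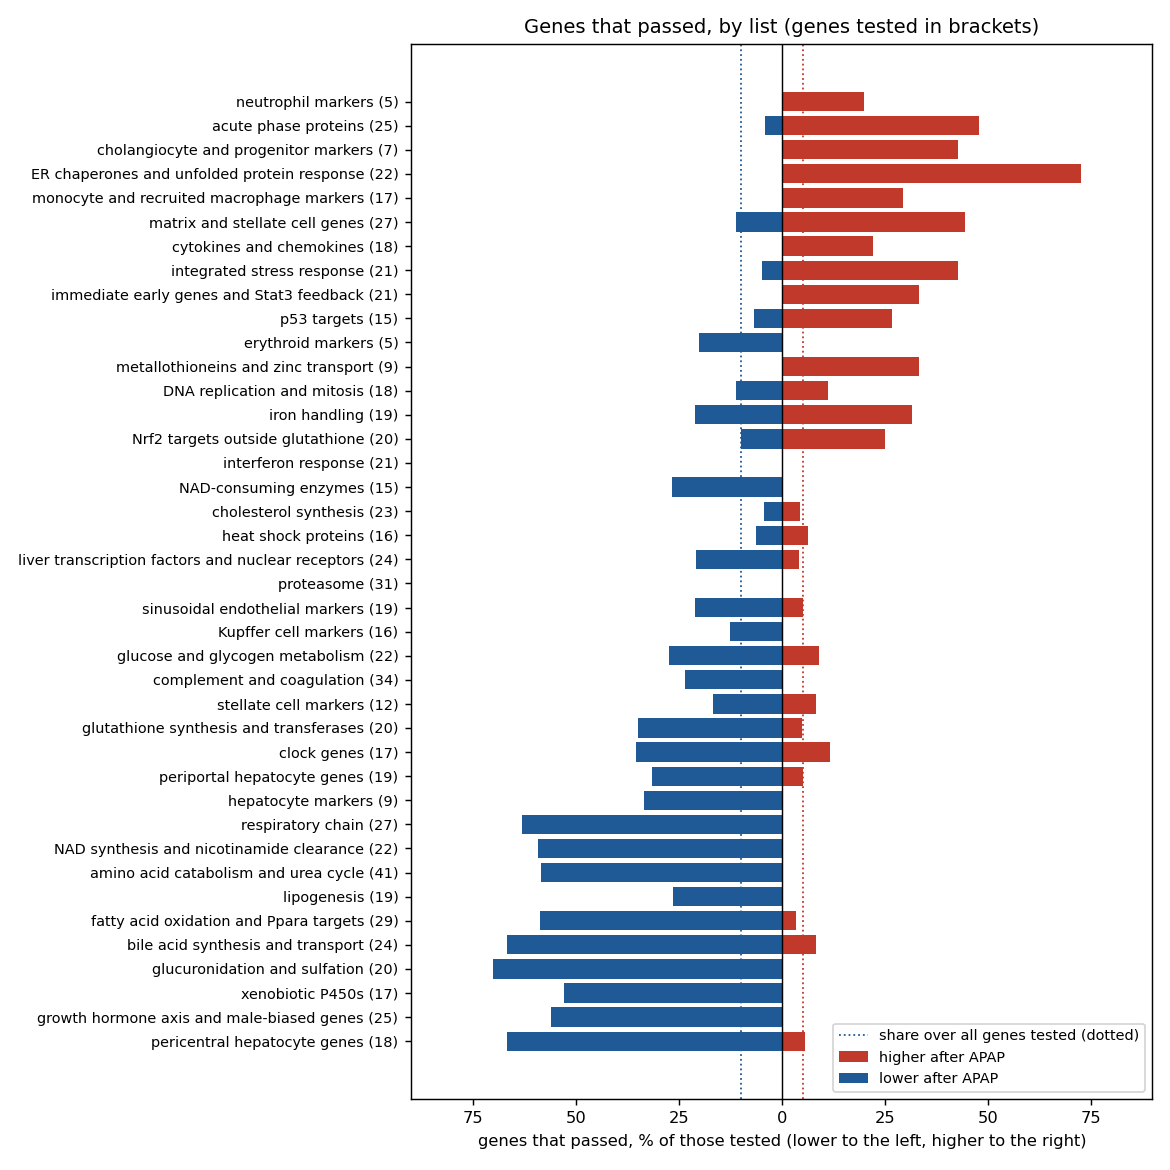
Share of the tested genes of each list that rose (right) or fell (left), in percent, ordered by the list's median difference, with the share over all genes tested as dotted lines. ER genes reach 72.7% higher, and glucuronidation and sulfation genes 70% lower, against 5.26% and 9.99% of all genes. The 40 lists with at least 5 tested genes are drawn.

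Genes of inflammation and of recruited cells were higher at low levels. Ccl2, the main monocyte attractant, stood at 0.87, 1.75 and 0.44 FPKM under saline and at 3.43, 16.6 and 22.1 FPKM after APAP (2.64 ± 0.65, adjusted p = 0.0483). APAP liver 1 was the lowest of the APAP livers, and the call was lost in 11 of 20 alternatives. Of 18 tested cytokines and chemokines (30 listed) 4 rose, the others being Vcam1, an adhesion receptor of vessels (1.19 ± 0.12), Tgfb1 (1.04 ± 0.20) and Ccl9 (0.91 ± 0.18). Ccl7 (0.07 to 0.09 FPKM under saline, 0.78, 7.17 and 9.25 FPKM after APAP) and Cxcl1 did not pass.

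Of 17 tested monocyte and recruited macrophage markers (20 listed) 5 rose (29.4% against 5.26% of all genes) and 0 fell (median 0.89). Ccr2, Chil3, S100a4, Itgam, Ly6c2 and Gpnmb averaged under 1 FPKM in saline livers and were tested only through the APAP livers. The filter itself thus favoured rises in this list and a higher median. Chil3, a product of recruited monocytes and macrophages, went from 0.12, 0.08 and 0.21 FPKM to 2.00, 8.45 and 12.5 FPKM (2.67 ± 0.53, adjusted p = 0.0235). The monocyte receptor Ccr2 rose by 1.56 ± 0.37, S100a4 by 2.47 ± 0.46, Lgals3 by 2.09 ± 0.53 and Cd9 by 0.99 ± 0.12. The summed list stood at 307 to 340 FPKM under saline and at 315, 333 and 576 FPKM after APAP, of which F10, a coagulation factor of hepatocytes, made up 199 to 215 FPKM and then 168, 179 and 124 FPKM. Lyz2, the lysozyme of macrophages and monocytes, stood at 198 FPKM in APAP liver 3 and at 36.2 to 70.2 FPKM in the other 5 livers tested. None of the 17 passed in the non-perfused livers alone, where the median was 1.06. Among 16 Kupffer cell markers 0 rose and 2 fell (12.5%, near the 9.99% of all genes), Folr2 (-0.79 ± 0.22) and Nr1h3. Folr2 lost its call in 13 of 20 alternatives and Nr1h3 in 10 of 20.

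Neutrophil markers were low. Their sum without Lcn2, which hepatocytes also make, was 2.89 to 4.08 FPKM under saline and 17.1, 29.7 and 116 FPKM in APAP livers 1 to 3. Of 16 listed, 5 reached the level for testing. S100a8, Csf3r and Prtn3 did so only through the APAP livers, so the filter itself favoured genes higher after APAP. All 5 had every APAP liver above every saline liver (16.3% of all genes tested), but only Prtn3 passed (2.51 ± 0.25, adjusted p = 0.00359). S100a9 stood at 3.91, 7.72 and 55.7 FPKM after APAP against 1.09 to 1.13 FPKM under saline (adjusted p = 0.134). Camp was at 0 in all 6 libraries, and Ly6g was above 0 only in APAP liver 3. T, B and NK cell markers gave 2 tested genes of 16, and neither passed.

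Matrix and stellate cell genes rose in number. Of 27 tested (32 listed) 12 rose (44.4% against 5.26% of all genes) and 3 fell (11.1%, near the 9.99% of all genes), with a median of 0.83. Thbs1, thrombospondin, went from 0.33, 0.26 and 0.51 FPKM to 2.19, 7.71 and 17.0 FPKM (2.54 ± 0.59, adjusted p = 0.0369). Only its APAP values brought it to the level for testing. The rise of Timp1, which blocks matrix proteases, was 1.91 ± 0.47. Both followed one order, with APAP liver 1 lowest and APAP liver 3 highest. The basement membrane chains Col4a1 (1.62 ± 0.23) and Col4a2 (1.33 ± 0.24), Tagln and Vim rose as well. The matrix proteins Dcn, Ecm1 and Lum fell. Of 12 stellate cell markers 1 rose (Pdgfrb, 8.33% against 5.26% of all genes) and 2 fell (Dcn and Ecm1, 16.7% against 9.99%). Their summed level was 179 to 187 FPKM under saline and 112 to 143 FPKM after APAP, summed over all 12 markers. Among non-perfused livers alone 1 matrix gene rose and 1 fell.

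Of 19 sinusoidal endothelial markers 4 fell (21.1%) and 1 rose (5.26%), beside 9.99% and 5.26% over all genes tested. Wnt2, the endothelial signal that sustains pericentral hepatocytes, stood at 1.79, 1.36 and 1.86 FPKM under saline and at 0.28, 0.21 and 0.55 FPKM after APAP (-0.99 ± 0.17, adjusted p = 0.0121). Every APAP liver was below every saline liver, and the IG liver stood at 1.85 FPKM. Axin2, a target of Wnt signalling, did not pass (-0.23 ± 0.22). Among bile duct and progenitor markers Krt8 (1.15 ± 0.20), Krt18 (1.38 ± 0.25) and Sox9 rose. Krt8 and Krt18 are keratins of hepatocytes too, and the bile duct markers without them and Spp1 summed to 6.87 to 10.6 FPKM under saline and 9.37 to 14.1 FPKM after APAP.

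Bile acid genes fell broadly, 16 of 24 tested, with a median of -0.99. Cyp7a1, which starts bile acid synthesis and limits its rate, stood at 43.3, 38.7 and 28.2 FPKM under saline and at 13.8, 5.82 and 9.21 FPKM after APAP (-1.88 ± 0.29, adjusted p = 0.00966). Cyp8b1, which sets the share of cholic acid, went from 124, 108 and 143 FPKM to 33.6, 38.0 and 16.6 FPKM (-2.12 ± 0.29). In both genes the groups were apart, and the IG liver stood lower than the saline livers, at 24.2 FPKM of Cyp7a1 and 57.4 FPKM of Cyp8b1. Uptake from blood fell with synthesis: Slc10a1, the sodium-dependent importer, by 1.96 ± 0.25 and Slco1b2 by 2.28 ± 0.20. Nr1h4, the bile acid receptor FXR, fell by 1.0 ± 0.14. The canalicular pump Abcb11 did not pass (-0.97 ± 0.40, adjusted p = 0.148). The 2 that rose were Abcc4, which exports bile acids back to blood, and Fgfr4 (0.48 ± 0.13), the receptor of intestinal Fgf15. With non-perfused livers alone 2 of the 24 fell and 1 rose.

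Genes that burn fatty acids fell in 17 of 29 cases and rose in 1, with a median of -0.87. Acaa1b, a peroxisomal thiolase, fell by 2.42 ± 0.43, Cyp4a12a by 1.98 ± 0.17, and Cpt2, which brings fatty acids into mitochondria, by 0.79 ± 0.15. Fabp1, the abundant fatty acid binding protein, stood at 8228, 8410 and 7122 FPKM under saline and at 3951, 4019 and 1317 FPKM after APAP (-1.52 ± 0.42, adjusted p = 0.0498), and the call was lost in 13 of 20 alternatives. The gene that rose, Pdk4, holds back the burning of glucose (0.67 ± 0.17). Under quantile normalisation 9 of the 29 fell. Lipogenesis genes fell in 5 of 19 cases, led by Thrsp (-2.62 ± 0.29), while the IG liver stood above the saline livers in Thrsp (1316 FPKM against 402 to 911 FPKM). Cholesterol synthesis gave no common direction, with 1 of 23 higher (4.35% against 5.26% of all genes), 1 lower (4.35% against 9.99%) and a median of -0.06.

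Amino acid catabolism and the urea cycle fell in 24 of 41 tested genes and rose in 0, with a median of -0.77. Bhmt, which passes methyl groups to homocysteine to make methionine, stood at 1646, 1341 and 1785 FPKM under saline and at 751, 500.0 and 378 FPKM after APAP (-1.60 ± 0.27, adjusted p = 0.0104). All 3 APAP livers lay below all saline livers. Cth, which leads sulfur towards cysteine, fell by 1.31 ± 0.23. Under quantile normalisation 13 fell. In glucose metabolism 6 of 22 fell (27.3% against 9.99% of all genes) and 2 rose (9.09% against 5.26%). Slc2a2, the hepatocyte glucose carrier, went from 216, 225 and 235 FPKM to 46.6, 106 and 41.3 FPKM (-1.92 ± 0.33), and Gys2 and Pygl, which build and break down glycogen, fell by 1.62 ± 0.34 and 1.45 ± 0.25. Slc2a1, the carrier of most other cells, rose by 1.16 ± 0.28.

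Nuclear genes of the respiratory chain were lower by small and even amounts. In all 27 tested genes every APAP liver was below every saline liver (21.8% of all genes), 17 passed and the median was -0.63. Ndufs7, of complex I, stood at 70.5, 58.1 and 59.8 FPKM under saline and at 34.5, 37.3 and 35.4 FPKM after APAP (-0.79 ± 0.12), and Sdhb, of complex II, fell by 0.79 ± 0.15. This group depends on the scaling, since 1 gene passed under quantile normalisation (median -0.23) and 16 under median-of-ratios scaling (median -0.59). Of the mitochondrial genome mt-Co1, mt-Co3, mt-Atp6 and mt-Atp8 were failed estimates and were not tested.

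Nampt (GRCm38 chromosome 12, 32819545 to 32853349, plus strand), the gene the series is about, stood at 18.0, 15.3 and 18.0 FPKM in saline livers and at 12.0, 10.9 and 16.8 FPKM after APAP. APAP liver 3 lay among the saline livers, the IG liver stood at 23.4 FPKM, and the difference did not pass (-0.37 ± 0.17, adjusted p = 0.178, 95% interval -0.75 to 0.02). It passed without APAP liver 3 (-0.54) and with array weights (-0.49). Of 22 tested genes of NAD synthesis and nicotinamide clearance (24 listed) 13 fell and 0 rose, with a median of -0.64. The enzymes that make NAD from tryptophan fell: Tdo2 (-0.82 ± 0.19), Afmid (-1.59 ± 0.25), Kmo (-0.83 ± 0.17), Kynu (-0.72 ± 0.20), Haao (-1.01 ± 0.23) and Qprt (-0.60 ± 0.15). Naprt, which uses nicotinic acid, and Nmrk1, which uses nicotinamide riboside, fell by 0.48 ± 0.13 and 0.98 ± 0.20. Nnmt, which methylates nicotinamide for export, did not pass (0.60 ± 0.26). Among 15 tested enzymes that consume NAD the mitochondrial deacylases Sirt3 (-0.96 ± 0.11), Sirt4 and Sirt5 and the nuclear Sirt7 fell, and 0 rose. Sirt3 lost its call only with the perfusion term in 6 libraries, whereas Sirt4 lost it in 13 of 19 alternatives, Sirt5 in 6 of 20 and Sirt7 in 7 of 20. Under quantile normalisation 6 NAD synthesis genes fell.

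Of 25 tested genes that belong to the growth hormone axis or are male-biased (29 listed), 14 fell, with a median of -1.24. Ghr, the growth hormone receptor, stood at 247, 245 and 242 FPKM under saline and at 113, 113 and 85.4 FPKM after APAP (-1.24 ± 0.15, adjusted p = 0.00496). The saline livers hardly differed, and each APAP liver was far below them. Igfals, which stabilises Igf1 in blood, fell by 1.43 ± 0.14, Igf1 by 0.54 ± 0.14 and Hsd3b5, a male-biased steroid enzyme, by 3.0 ± 0.67. Mup17 had the largest fall of all named genes (-5.50 ± 0.43), but it lies among Mup genes whose estimates failed and its value is uncertain. Socs2, induced by growth hormone, did not pass and stood at 20.3 FPKM in APAP liver 1 against 6.13 and 3.69 FPKM in livers 2 and 3.

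Clock genes shifted: of 17 tested, 2 rose (11.8% against 5.26% of all genes) and 6 fell (35.3% against 9.99%). Arntl, the core activator, went from 0.97, 0.71 and 0.85 FPKM to 4.52, 3.20 and 2.54 FPKM (1.24 ± 0.19, adjusted p = 0.00791), while Dbp (-1.52 ± 0.29), Tef (-1.15 ± 0.12) and Per3, which peak at other hours, fell. The hour of sampling was not given in the sources used here, so time of day cannot be told apart from treatment. Among liver transcription factors Nr1i3, the drug sensor CAR (-1.10 ± 0.17), Cebpa (-0.61 ± 0.15) and Onecut1 fell with Nr1h4 and Nr1h3, and Esr1 rose. Hnf4a, the main hepatocyte factor, did not pass (-0.01 ± 0.12, adjusted p = 0.955), and its sign turned under quantile normalisation.

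The APAP livers were not alike. Over the genes that fell, APAP liver 3 was the lowest of the 6 in 749 of 1105, liver 2 in 191 and liver 1 in 165. Over the genes that rose, liver 3 was the highest in 256, liver 2 in 246 and liver 1 in 80 of 582. At the median of the list, acute phase genes stood 0.69, 0.92 and 1.51 above the saline mean in livers 1 to 3, cytokines 0.29, 0.75 and 1.34, and monocyte markers 0.31, 0.74 and 1.81. ER genes did not follow this order (0.73, 1.02 and 0.96), nor did the integrated stress response (0.84, 0.90 and 0.73), while clock genes were lowest in liver 1 (-0.83, -0.21 and -0.16). Without APAP liver 3, 1404 genes passed.

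**Figure D4:**
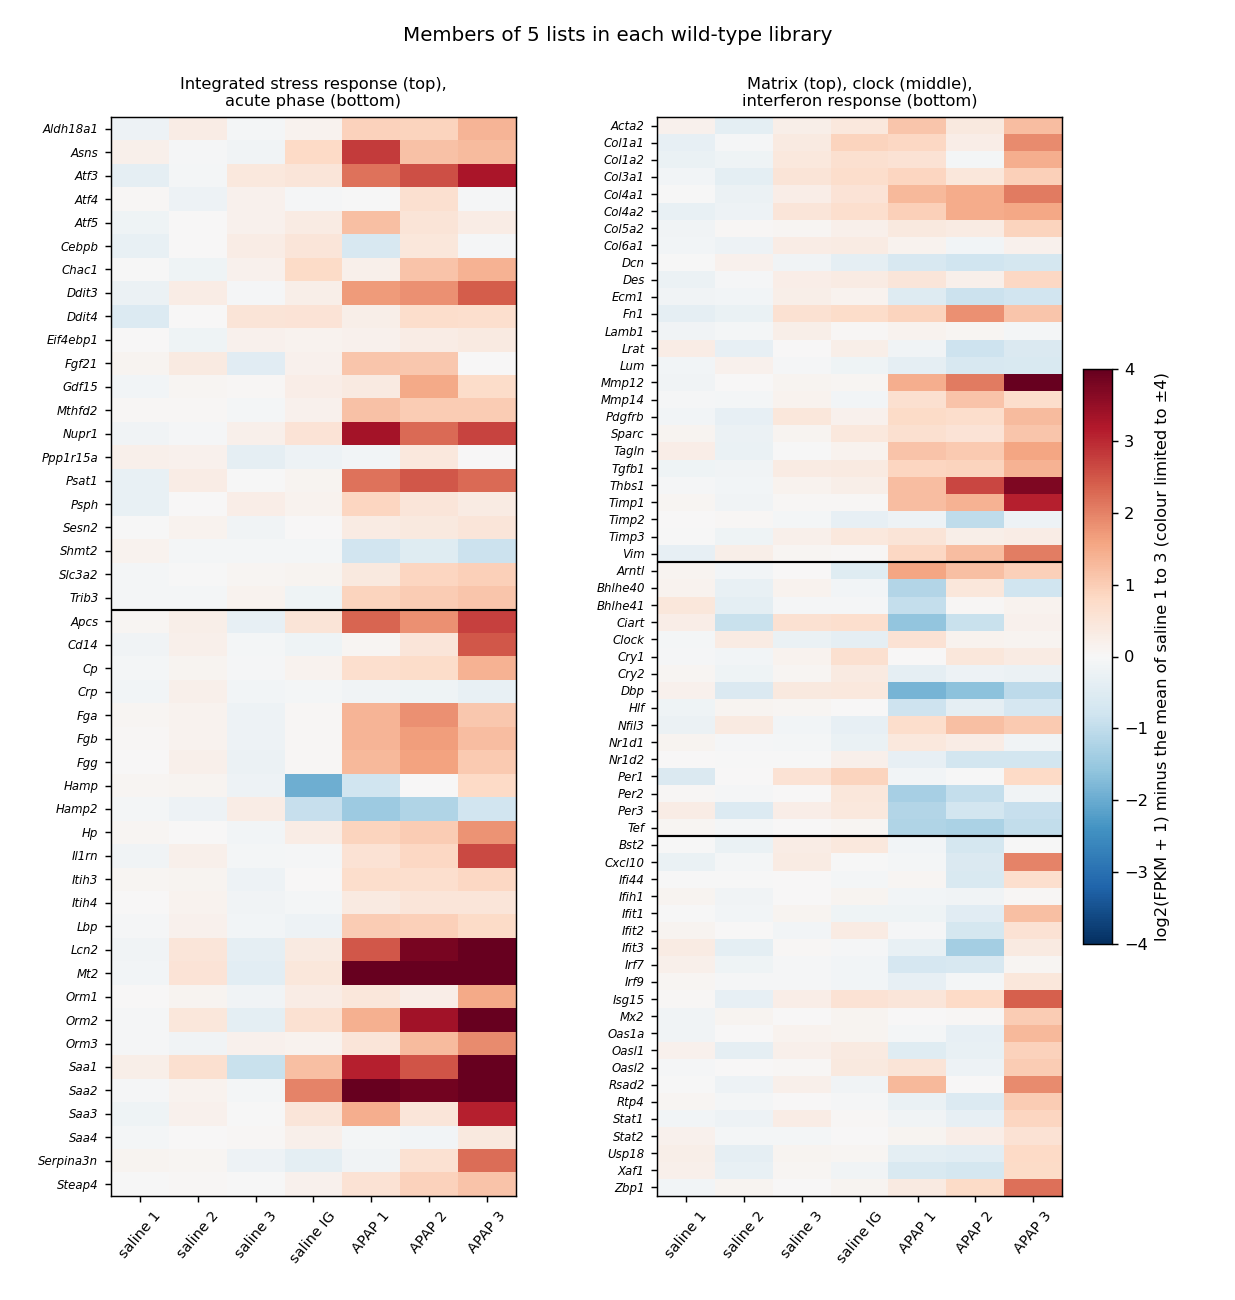
Each row is a tested member of 1 of 5 lists (2 members are not drawn), each column a wild-type library, and the colour is log2(FPKM + 1) minus the mean of saline livers 1 to 3, red above and blue below. Lcn2, Orm2, Thbs1, Isg15 and Zbp1 are most intense in APAP liver 3, whereas Asns and Nupr1 are most intense in APAP liver 1.

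The response was compared with that of the other genotype labels by an interaction term, in a fit of 15 libraries with a term for perfusion. The Het and OE APAP livers used had 200 mg/kg, and an OE liver at 300 mg/kg was left out. The mice were 11 weeks old, except that of OE APAP liver 2 (12 weeks). Het saline livers 1 and 2, Het APAP liver 1, OE saline liver 1 and OE APAP liver 2 were perfused (lane 8). Het APAP livers 2 and 3 (lane 5), OE saline liver 2 and OE APAP liver 1 (lane 4) were not. Het livers (3 APAP, 2 saline) gave 5 genes whose response differed (0.0452% of those tested), 924 at an unadjusted p under 0.05. Of these, Rn7sk, Fga, Fgb and Hpx were listed at 0 in all Het APAP libraries and are failed estimates there. The other, Itpr2, an inositol trisphosphate receptor, stood at 4.62 to 4.90 FPKM under saline and 5.99 to 7.62 FPKM after APAP in wild type, against 6.83 and 7.91 FPKM and 3.29 to 4.10 FPKM in Het livers. The difference between the responses was 1.26 ± 0.19 (adjusted p = 0.0451, or 0.222 without the genes at 0 throughout a group). Over 17 alternatives its adjusted p lay between 0.00685 and 0.453, and leaving out any 1 library ended the call. OE livers (2 APAP, 2 saline) gave 0 genes by limma and 676 at an unadjusted p under 0.05. The smallest p was that of Pmm1 (1.60 ± 0.29, adjusted p = 0.395). A difference of response that misses the threshold does not show that the genotypes responded alike.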

How the data were processed

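Liver RNA was sequenced with a stranded total RNA kit, per the labels' protocols. The deposited table holds 46073 genes and 17 libraries in FPKM, a unit inferred from the tools and the values, which the authors made with TopHat2 2.0.9, Cufflinks 2.2.1 and Cuffdiff on GRCm38 patch 5, per the submitters' processing notes. Which gene annotation they used was not given in the sources used here. Gene positions are from GENCODE vM21 on GRCm38, and promoters from RefSeq.

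Genes averaging 1 FPKM or more across the 6 libraries were tested with limma 3.58.1 (statmod 1.5.0, R 4.3.3) on log2(FPKM + 1), with a trended and robust variance prior, no covariate and 4 residual degrees of freedom. A gene low under saline could reach 1 FPKM through its APAP values alone, which favours rises in lists of low genes. The Benjamini-Hochberg threshold was 0.05. No term for perfusion was used, since over 15 libraries it would be estimated largely from Het and OE livers. Genes listed at 0 throughout wild-type saline or APAP with at least 10 FPKM elsewhere were left out. The fit was tested on simulated data.

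Named are the 12 genes that rose most and the 12 that fell most among those that passed (at least 5 FPKM in the higher group, no overlap, no predicted genes, small RNAs or pseudogenes), in each list up to 4 genes that passed with the smallest p and up to 2 with the largest change among those that did not, and 30 listed genes. Further list members that passed are named as examples chosen after their values were seen. The comparison and the gene lists were chosen with earlier results of these data known. Lists overlap in part. A few genes that the rule names are not reported here; they remain in all counts.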

Additional observations from a re-analysis of the deposited data

Results flagged for a closer look

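Itpr2 responded differently under the wild-type and Het labels by 1.26 ± 0.19 on the log2 scale (limma adjusted p = 0.0451). It was the only gene past the threshold that no group listed at 0 throughout. Without the genes at 0 throughout a group its limma adjusted p was 0.222, and it passed in 4 of 17 alternatives. The values of all 3 wild-type APAP livers were above those of the wild-type saline livers, and the values of all 3 Het APAP livers were below those of the Het saline livers. These are the values that gave the call, so this adds no support to it.

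Saa2 stood at 92.5 FPKM in the IG saline liver, which the comparison did not use, against 21.3 to 25.2 FPKM in the saline livers it did use. This rests on 1 library.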

How the results depend on the processing

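No paired analysis was possible because replicate numbers follow only the order of deposition. Of the 1687 genes that passed, all kept their direction in 18 of 20 alternatives. In the fit of 15 libraries with a perfusion term 1 turned, and the filter at 5 FPKM tested 1275, all with the same direction. The groups overlapped in none of the 1687. Their direction therefore could not turn with 1 library left out, another pseudocount or the perfusion term in 6 libraries, and keeping it there is no check. The count was 539 without a filter, 660 with 15 libraries and a perfusion term, 9 with that term in 6 libraries, 329 with non-perfused livers only, and 277 to 1825 with 1 library left out. Other settings gave 1202 to 2428. For the difference from Het the count was 5, 434 with array weights and 4 to 6 with 1 library left out, and 0 where genes at 0 throughout a group were left out, an alternative chosen after seeing the data. For the difference from OE it was 0 to 1 with 1 library left out.
Named genes that passed kept their sign in these 20 alternatives, in many of which the lack of overlap had fixed it. Among named genes that did not pass, the sign turned with quantile normalisation for Psma4 (0.0024) and Hnf4a (0.35), with median-of-ratios scaling for Hnf4a (0.023), and with array weights for Hnf4a (0.0013) and Hamp (-0.11). It turned with the perfusion term in 6 libraries for Bbc3 (-0.070) and Hbb-bs (-0.15), and in 15 libraries for Sc5d (0.078), Ighm (0.047), Hbb-bt (-0.21) and Hbb-bs (-0.59). Non-perfused livers alone turned Hbb-bt (-0.10), Hbb-bs (-0.26) and Myc (-0.38). Leaving out 1 library gave -0.21 to 0.49 for Nqo1, -0.39 to 0.41 for Hamp and -0.076 to 0.019 for Hnf4a. Where a library was left out of a group of 2, the lone library was assumed to vary like the others. Depth limits low genes: absolute depth is unknown, and APAP liver 1 was the shallowest.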

Other observations

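Interferon response genes had 0 of 21 past the threshold by limma and 3 at an unadjusted p under 0.05. They stood apart in 1 liver: at the median of the list APAP livers 1, 2 and 3 lay -0.10, -0.34 and 0.87 from the saline mean. Isg15, a ubiquitin-like protein of the antiviral response, stood at 4.03, 5.25 and 18.1 FPKM in APAP livers 1 to 3 against 1.88 to 3.37 FPKM under saline.

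Prtn3, proteinase 3 of neutrophil granules, stood at 7.24, 11.7 and 6.59 FPKM after APAP against 0.36 to 1.18 FPKM under saline, while Elane and Mpo, granule genes of the same cells, were at 0.22 FPKM or less in all 6 libraries and Camp was at 0. Prtn3 was not highest in APAP liver 3, where S100a9 was.

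Summed globins, a sign of blood in the liver, were 140, 53.5 and 219 FPKM in saline livers and 250, 114 and 210 FPKM in APAP livers 1 to 3, and did not separate the groups. Alas2, which makes haem in red cell precursors, fell by 1.23 ± 0.20.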
